A study of Saccharomyces cerevisiae with 12 samples.

Results

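Gene expression on day 2 was compared with log phase in the budding yeast Saccharomyces cerevisiae, strain CENPK 113-7D, a haploid prototrophic laboratory strain of mating type a. The cells were cultivated in batch in SD medium, a defined medium, with glucose at 2%. The comparison took the 3 arrays whose labels give the growth phase as log phase and the 3 labelled as stationary phase for 2 days, 6 of the 12 arrays of a series that went on to days 6 and 10. The sample labels place the 2 days in stationary phase, whereas the description of the series places them in cultivation, so when the count began is not known. Both groups were unmutated and untreated and differed by label in growth phase alone. All 5449 S. cerevisiae genes that had a probe set with 1 annotated gene entered the comparison. Whether the 3 arrays of a group stem from separate cultures is not stated in the labels. P-values here measure only how far these samples spread, and that spread may be technical.

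Yeast that grows on glucose ferments it to ethanol even in air, and glucose represses the genes for respiration, for gluconeogenesis and for other carbon sources. When the glucose is used up, the Snf1 kinase lifts this repression and the cells turn to ethanol, acetate and glycerol, while the protein kinases PKA and TOR, which drive ribosome production in rich conditions, become less active. Cells that then run out of a nutrient stop dividing, thicken their walls, store glycogen and trehalose and enter stationary phase. Many yeast enzymes exist as pairs of isoenzymes left by an ancient genome duplication, of which one member often serves growth on glucose and the other growth without it.

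All 7 subunits that belong to RNA polymerase I alone, the enzyme that transcribes ribosomal RNA, fell on day 2, as 41.5% of all genes did. That list was chosen with earlier results of these data known, so it cannot check the growth phase labels. Genes of the division cycle did not move one way as a list: of 20 cyclins and regulators of entry into S phase 6 rose and 7 fell, the S phase cyclin CLB6 by 1.49 ± 0.06 on the log2 scale. Throughout, values are the deposited log2 values, a difference is day 2 minus log phase ± its standard error in limma, and group values are means ± SD of n = 3 arrays. A gene was called, and is said to have risen or fallen, at an adjusted p under 0.05 over all 5449 genes, and folds follow from the log2 difference.

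Across genes, which are not independent replicates, the log phase arrays correlated with each other at r = 0.994 to 0.998 and the day 2 arrays at r = 0.981 to 0.992. Between the groups r ran from 0.710 to 0.779. The median SD of a gene was 0.059 in log phase and 0.10 on day 2. Signal at the 3' end less signal at the 5' end of 8 control genes, which reports on RNA integrity, averaged 1.25 ± 0.07 for the log phase arrays and 0.86 ± 0.24 for the day 2 arrays. The hybridisation control bioB less bioC averaged -2.17 ± 0.08 and -0.79 ± 0.04 for the same groups. On days 6 and 10 it averaged -0.88 ± 0.02 and -0.89 ± 0.01, so the log phase arrays lay apart from all others. A difference in array handling that goes with log phase cannot be told apart from growth phase here. Of the 281 called genes named here 23 were not called with the 3' minus 5' signal as a covariate: ADE17, ALD5, CTR2, CTS1, DPS1, FKS1, GND1, HMG2, IME1, MAC1, MIA40, PAB1, RIP1, RPA190, RPO31, SHM1, SHM2, SSC1, THI80, URA2, ZPS1, ZRT2 and ZRT3. The part of bioB in the results was not tested beyond the centring without it. All values are relative, a gene being read against the rest of its array. In a bulk sample, fewer cells of a kind and less RNA per cell cannot be told apart.

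The comparison was broad and, on the deposited scale, lopsided in size. Of the 5449 genes 4387 were called (80.5%), 2127 higher on day 2 (39%) and 2260 lower (41.5%), with a median difference over all genes of -0.02. Counts of genes that rose or fell in the lists below are to be read beside these shares. For 4502 genes (82.6%) the arrays of the groups did not overlap, with day 2 above log phase for 40.1% of all genes and below it for 42.6%. Called differences of at least 2-fold were counted for 665 higher genes (12.2%) and 585 lower genes (10.7%). Past this size the sides parted. At least 4-fold were 217 higher and 31 lower genes, at least 8-fold 64 and 1, and at least 16-fold 11 and 0. With the arrays centred on the hybridisation controls, which shifts the median of all genes to -0.44, the counts were 137 higher and 130 lower at 4-fold and 34 and 7 at 8-fold. That centring lowers every difference by 0.42. Of the 281 called genes named here 44 were not called under it, all of them rises of at most 0.76. With bioB left out of that centring the shift was -0.048 and the counts were 209 and 35 at 4-fold and 59 and 1 at 8-fold. Under quantile normalization the counts were 194 and 31 at 4-fold and 53 and 1 at 8-fold.

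**Figure D1:**
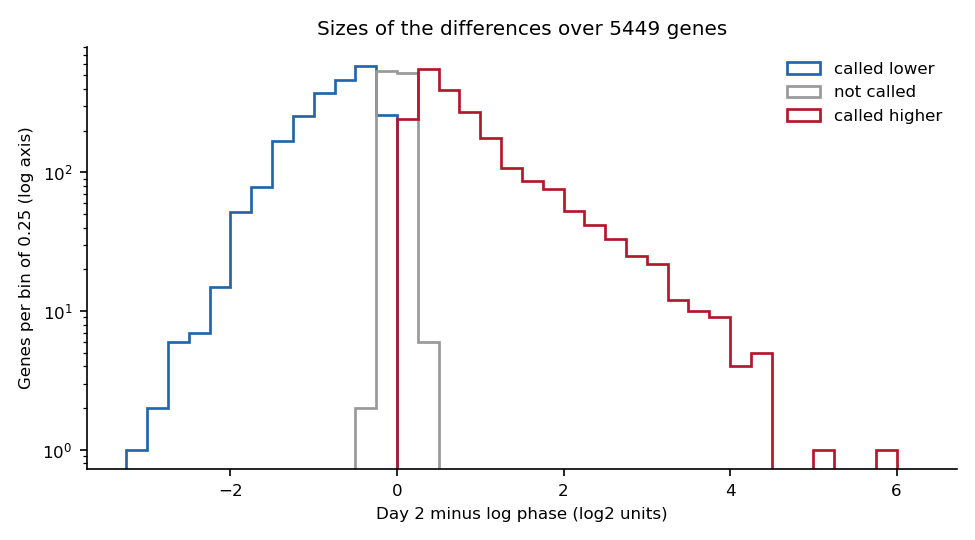
Differences between day 2 and log phase of the 5449 genes, in log2 units on the horizontal axis, with the number of genes per bin on a logarithmic vertical axis, for genes called higher, called lower and not called. The higher genes reach 5.97 and the lower genes -3.05.

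Genes of 1000 bases and over lay higher than shorter ones. By the annotated span of the gene in the S288C reference, the median difference was -0.31 for 659 genes under 500 bases, -0.23 for 1428 genes from 500 to below 1000, 0.10 for 2134 genes from 1000 to below 2000, 0.09 for 767 genes from 2000 to below 3000 and 0.16 for 461 genes of 3000 bases and over. Of the shortest genes 20.9% rose and 56.9% fell, and of the longest 50.3% rose and 25.8% fell. On each of the 3 day 2 arrays both bins under 1000 bases lay below 0 and the other 3 above it, with -0.27, -0.32 and -0.35 for the shortest genes and 0.20, 0.15 and 0.15 for the longest, while neighbouring bins did not keep one order on every array. Medians of days 6 and 10 against log phase were likewise below 0 in both bins under 1000 bases and above it otherwise. They were -0.12 and -0.22 for the shortest genes and 0.28 and 0.12 for the longest. Across the 5449 genes Spearman's rho between length and the difference of day 2 from log phase was 0.24, given as a description. Subunit lists of short genes, such as the small Tim proteins and the small polymerase subunits, thus overlap with this trend, and the part of length in their values was not tested.

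One log phase array stood apart among the genes that rose most. Of the 217 genes called at least 4-fold higher, log phase replicate 3 was the highest of the 3 log phase arrays for 144 (66.4%), against 41.2% of all genes. Its values for these genes lay a median of 0.12 above the mean of the other log phase arrays. Day 2 replicate 3 was the highest day 2 array for 142 of the 217 (65.4%), against 42.9% of all genes. Of the 31 genes called at least 4-fold lower, it was the lowest day 2 array for 23 (74.2%), against 32.4% of all genes. Day 2 replicate 1 was the highest for 21 of the 31 (67.7%), against 33.4%. The 3' minus 5' signal of day 2 replicates 1, 2 and 3 was 1.13, 0.75 and 0.69. Without log phase replicate 3 the difference of the malate synthase gene MLS1 went from 4.04 to 4.39, and that of the hexokinase gene HXK1 from 4.13 to 4.40. What distinguished these arrays was not tested.

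Of all genes THI4 rose most. THI4, which makes the thiazole part of thiamine (vitamin B1), stood at 6.45, 6.46 and 6.29 in log phase and at 12.38, 12.29 and 12.43 on day 2. THI13, of a family that makes the pyrimidine part, went from 6.64, 6.65 and 6.53 to 11.70, 11.68 and 11.87. No other genes differed by 32-fold or more: THI4 was 62.6-fold higher (5.97 ± 0.08, adjusted p = 9.49e-15) and THI13 35.3-fold (5.14 ± 0.07). The THI13 probe set is shared with similar sequences, so its value may belong to several near-identical family members. The next gene was MF(ALPHA)1, which encodes the pheromone alpha-factor, with 5.95, 6.09 and 6.00 in log phase and 10.28, 10.65 and 10.51 on day 2. JEN1, the lactate and pyruvate carrier of the plasma membrane, stood at 6.59, 6.48 and 6.31 against 10.92, 10.78 and 10.99. In none of these did the groups come near each other.

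The other genes of the highest 15 were FMP45, YGR109W-A, MSC1, GLC3, HXK1, THI73, MLS1, ICL1, MPC3, RTN2 and PDC5. FMP45, a SUR7 family protein of the cell cortex, was below background in log phase at 5.74 ± 0.11 and reached 10.16 ± 0.28, at least 19.8-fold higher. YGR109W-A, the Gag protein of a Ty3 retrotransposon, was also below background in log phase and was at least 19.7-fold higher, on a probe set shared with similar sequences. GLC3, the glycogen branching enzyme, went from 7.07 ± 0.25 to 11.31 ± 0.02. MSC1, MLS1, the isocitrate lyase gene ICL1 and HXK1 all had their highest log phase value on replicate 3: MLS1 stood at 5.85, 5.86 and 6.89 in log phase and at 10.28, 10.15 and 10.29 on day 2. Even that array stayed more than 3 log2 units below every day 2 array.

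PDC5 and MPC3 handle the same metabolite, pyruvate. PDC5, a pyruvate decarboxylase that starts fermentation, went from 9.21, 9.11 and 9.17 to 12.94, 12.99 and 13.03, a 14.2-fold rise. Its isoenzyme PDC1 rose by 0.33 ± 0.06. MPC3 encodes the subunit that pairs with Mpc1 in the mitochondrial pyruvate carrier of respiring cells, and went from 6.92, 6.85 and 6.92 to 10.66, 10.92 and 10.79. The carrier genes MPC1 and MPC2, picked for naming after their values were seen, were not called, at -0.00 ± 0.09 and -0.03 ± 0.06.

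**Figure D2:**
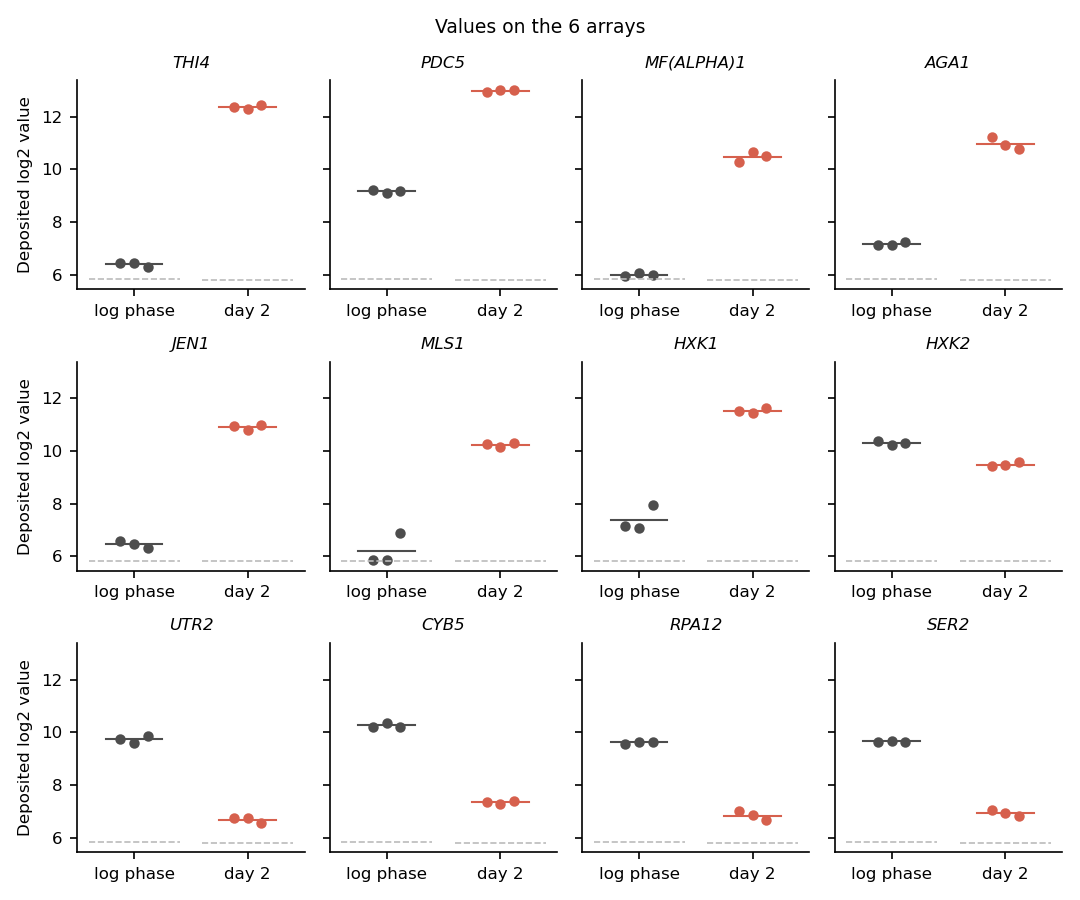
Deposited log2 values of 12 genes on the 3 log phase and 3 day 2 arrays, each point an array in the order of its replicate number, each solid line a group mean and each dashed line the background level of that group (5.84 in log phase, 5.81 on day 2). No gene shown has overlapping groups, and MLS1 and HXK1 show the raised log phase replicate 3.

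The lowest genes included several polymerase subunits, ribosomal proteins and a ribosome assembly factor, next to genes of other pathways. UTR2, a cell wall enzyme that joins chitin to glucan, was the lowest, with 9.76, 9.60 and 9.85 in log phase and 6.76, 6.74 and 6.56 on day 2, or 8.27-fold lower (-3.05 ± 0.07, adjusted p = 1.65e-12). CYB5, cytochrome b5, which donates electrons in sterol and lipid synthesis, followed with 10.21, 10.36 and 10.21 against 7.36, 7.28 and 7.39. RPA12, the subunit of RNA polymerase I that acts in RNA cleavage, stood at 9.57, 9.63 and 9.64 against 7.01, 6.86 and 6.66. RPC11, its counterpart in RNA polymerase III, fell by 2.75 ± 0.15. SER2, the last enzyme of serine synthesis from glycolysis, went from 9.65, 9.67 and 9.65 to 7.06, 6.93 and 6.84. The groups were apart by more than 2 log2 units for all of these.

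The rest of the lowest 15 fell by between 2.27 and 2.66. They were the RNA polymerase III subunit gene RPC17, the uracil salvage gene FUR1, PKR1, which acts in assembly of the vacuolar proton pump, the ribosomal protein genes RPS28B and RPL22B, YOR072W-B, REX4, the ribosome assembly gene UTP23, the shared polymerase subunit gene RPB8 and TIM12 of mitochondrial import. RPL22B had the widest day 2 spread of these, with 8.31, 8.04 and 7.34 against 10.25, 10.08 and 10.22 in log phase.

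Genes of glucose sensing and of release from glucose repression mostly rose. Of 11 measured genes of glucose sensing and repression 9 rose and 1 fell (median 0.49). MTH1, which represses hexose transporter genes when glucose is absent, led them with 6.73, 6.82 and 6.97 in log phase and 10.20, 10.05 and 9.99 on day 2. Its paralogue STD1 rose by 0.44 ± 0.05, and the glucose sensors SNF3 and RGT2 by 1.12 ± 0.06 and 0.49 ± 0.07. The repressor genes MIG1 and MIG2 rose by 1.01 and 1.25 and MIG3 was not called. HXK2, the hexokinase that also signals glucose, was the member that fell.

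Of 13 genes of the Snf1 kinase and the activators of derepression 8 rose and 1 fell (median 0.30, or -0.12 on the scale of the hybridisation controls). The kinase gene SAK1, which activates Snf1, was at -0.03 and not called, and the Snf1 subunit gene SNF4 fell by 0.53. Differences of the activator genes were larger in size: ADR1, which turns on ethanol and fatty acid use, rose by 2.18 ± 0.10, SIP4 by 2.31, CAT8 by 1.36 and HAP4, the activating subunit for respiratory genes, by 1.91. ADR1 stood at 6.15, 6.27 and 6.52 in log phase and at 8.54, 8.37 and 8.57 on day 2, again with log phase replicate 3 highest and without overlap.

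Of 16 enzymes that make or use ethanol, acetaldehyde and acetate, PDC5 among them, 11 rose and 3 fell (median 1.33). The gene of the mitochondrial enzyme ACH1, named an acetyl-CoA hydrolase, went from 7.73, 7.67 and 8.01 to 11.00, 11.02 and 11.08. The acetaldehyde dehydrogenases ALD4 and ALD6 rose by 3.15 ± 0.14 and 2.28 ± 0.08, and the acetyl-CoA synthetases ACS1 and ACS2 by 1.68 and 0.53. ADH2, which oxidises ethanol, rose by 1.88 ± 0.15 and ADH1, which makes it, fell by 0.85 ± 0.08. The mitochondrial ADH3 and ALD5 fell as well, by 0.42 and 0.29.

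Of 12 genes of carnitine metabolism and carboxylic acid transport, at the plasma membrane as well as in mitochondria, 10 rose and 2 fell (median 2.01), JEN1 being the highest. The carnitine acetyltransferases YAT2, YAT1 and CAT2 rose by 2.95, 1.92 and 2.10, the mitochondrial carnitine carrier CRC1 by 2.47 and the plasma membrane carnitine transporter AGP2 by 2.26. YAT2 stood at 6.71, 6.56 and 6.72 against 9.59, 9.62 and 9.63. The succinate and fumarate carrier SFC1 was below background in log phase at 5.81 ± 0.23 and was at least 8.65-fold higher. The oxoglutarate carrier genes parted: ODC1 rose by 0.59, and ODC2 fell from 9.35 ± 0.07 to 8.35 ± 0.12.

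Hexokinase and enolase isoenzymes moved in opposite directions. HXK1 stood at 7.14, 7.08 and 7.93 in log phase and at 11.52, 11.43 and 11.61 on day 2, while HXK2 went from 10.39, 10.23 and 10.29 to 9.42, 9.45 and 9.58. ENO1, the enolase tied to gluconeogenesis, rose by 1.36 ± 0.07, from 10.87, 10.89 and 10.83 to 12.12, 12.20 and 12.35. ENO2, the enolase of growth on glucose, fell by 0.97 ± 0.11, from 12.15, 12.08 and 12.12 to 10.95, 11.10 and 11.38. Both pairs crossed in direction without overlap of the arrays. The glyceraldehyde-3-phosphate dehydrogenase TDH1 rose by 1.71 ± 0.08 and its partner TDH3 was not called at -0.02. Pyruvate kinase PYK2 rose by 1.84 and CDC19 by 0.41.

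In the pentose phosphate pathway, which supplies NADPH and ribose, the minor isoenzymes rose. TKL2, a transketolase, went from 6.19, 6.23 and 6.37 to 9.95, 9.82 and 9.97 while TKL1 stood at 10.58, 10.53 and 10.70 against 10.59, 10.54 and 10.48 and was not called. The transaldolase NQM1 rose by 2.85 and TAL1 was not called at 0.18. GND2 and SOL4 rose by 2.57 and 2.37 and GND1 and SOL3 fell by 0.20 and 0.66. ZWF1, which has no second copy and makes the first NADPH of the pathway, rose by 2.58. RKI1 and RPE1, which interconvert the pentose phosphates, fell by 1.77 and 1.60. The list of 11 held 5 higher and 4 lower genes (median 0.18, or -0.24 on the scale of the hybridisation controls). That median was 0.03 with the 3' minus 5' covariate, 0.32 without day 2 replicate 1 and 0.06 without day 2 replicate 3.

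Of 11 glycerol genes 8 rose and 1 fell (median 0.91). The genes of glycerol use, the kinase GUT1 and the mitochondrial dehydrogenase GUT2, rose by 1.34 and 3.13. GUT2 stood at 6.71, 6.76 and 7.01 in log phase and at 9.92, 9.90 and 10.06 on day 2. In glycerol synthesis GPD1 rose by 1.84 ± 0.13 and GPD2 was not called at -0.12. The phosphatase GPP1 fell from 11.07, 11.11 and 11.05 to 8.83, 9.14 and 9.32 and its paralogue GPP2 rose by 0.91 ± 0.12. The glycerol channel gene FPS1 was not called at -0.03.

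Such splits were counted over all isoenzyme and paralogue pairs that were listed. Of 70 pairs 66 had both genes measured. In 20 pairs the members were called in opposite directions, in 23 both rose, in 2 both fell, in 19 only one member was called and in 2 neither was. Of all 5449 genes 39% rose and 41.5% fell, so unrelated genes are often called in opposite directions too. Whether the listed pairs part more often than unrelated genes was not tested. Over the scalings tried, the number of opposite pairs was 18 to 21, and with the 3' minus 5' signal as a covariate it was 16. The distance was largest for HXK1 and HXK2, then for URA10 and URA5, for CYC7 and CYC1 and for SOL4 and SOL3. It was smallest for SHM2 and SHM1, the serine hydroxymethyltransferases of cytosol and mitochondria, at 0.21 ± 0.08 and -0.16 ± 0.07. Their calls rested on single arrays: SHM1 was not called without log phase replicate 1 (-0.14), log phase replicate 3 (-0.13) or day 2 replicate 2 (-0.09), nor SHM2 without log phase replicate 1 (0.20), log phase replicate 2 (0.18) or day 2 replicate 3 (0.11). Among signalling pairs RAS2 rose by 0.67 and RAS1 fell by 1.54, PDE1 rose by 0.99 and PDE2 fell by 0.92, and the ubiquitin-conjugating enzyme genes UBC5 and UBC4 were at 1.41 and -0.52. The thioredoxins TRX2 and TRX1 were at 0.42 and -1.48. TRX1 went from 11.16, 11.13 and 11.00 to 9.78, 9.69 and 9.37.

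**Figure D3:**
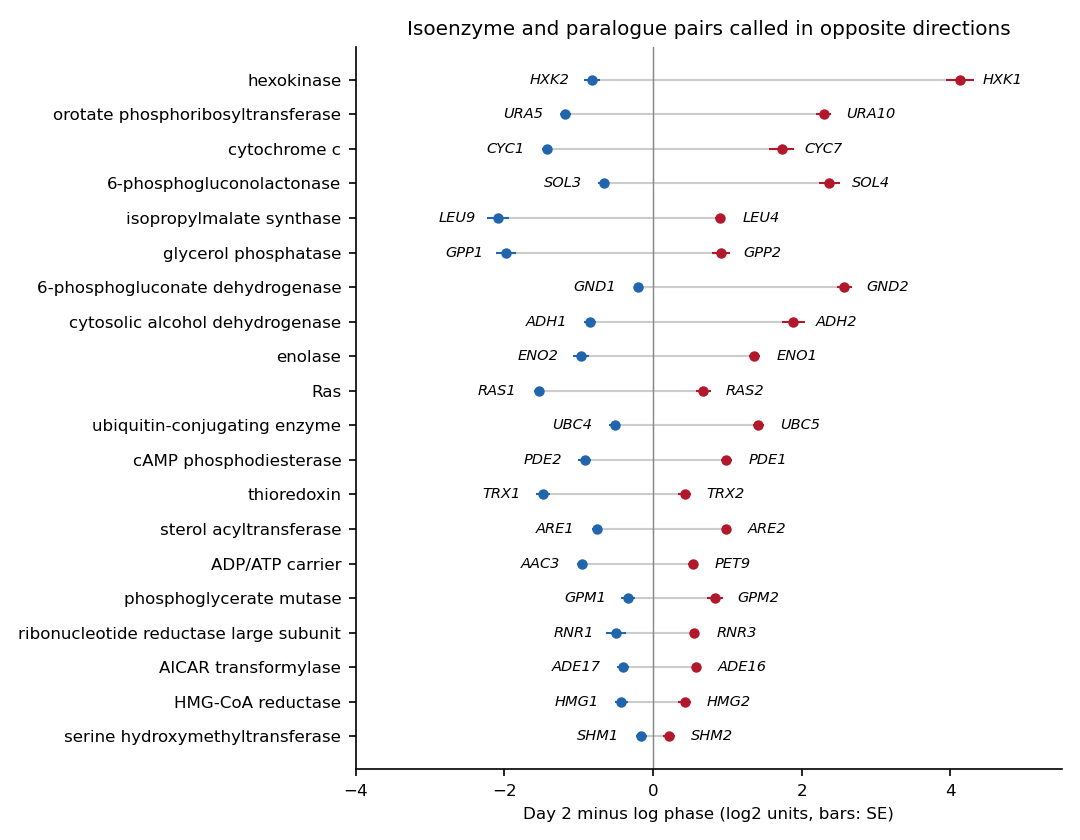
The 20 pairs of isoenzymes or paralogues whose members were called in opposite directions, with the difference between day 2 and log phase in log2 units and its standard error for the higher member (red) and the lower member (blue). Pairs are ordered by the distance between the members, from hexokinase at the top to serine hydroxymethyltransferase at the bottom.

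The respiratory chain did not move as a block. All 3 NADH dehydrogenase genes rose (median 2.00), these being the single-subunit enzymes that yeast has in place of complex I. NDI1, on the matrix side, stood at 6.96, 6.92 and 7.16 against 8.99, 8.93 and 9.13, and NDE2, on the outer side, rose by 2.44 ± 0.12. All 4 subunits of succinate dehydrogenase (complex II) rose (median 1.31), from SDH3 at 0.45 to SDH2 at 1.45. Of 11 genes of complex III and cytochrome c 5 rose and 2 fell (median 0.07, -0.35 on the scale of the hybridisation controls and 0.26 given the 3' minus 5' covariate). The core protein gene QCR2 and the small subunit genes QCR7 and QCR8 lay between 0.01 and 0.06 and were not called, the other core protein gene COR1 rose by 0.33 ± 0.09, and the Rieske protein gene RIP1 rose by 0.64.

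Of 9 cytochrome oxidase (complex IV) genes 1 rose and 4 fell, beside 39% and 41.5% of all genes (median -0.12). The riser was COX5B, the form of subunit 5 otherwise made at low oxygen, with 6.51, 6.66 and 6.49 against 7.98, 7.99 and 7.37, while COX5A was at -0.01 and not called. The cytochrome c pair parted in the same sense: CYC7 rose by 1.73 ± 0.16 and CYC1 went from 10.64, 10.67 and 10.71 to 9.30, 9.12 and 9.32. Of 10 genes for the synthesis of heme, which these proteins carry, and for regulation by heme and oxygen, 3 rose and 5 fell (median -0.15). HEM13, an oxygen-dependent step, fell by 1.04 and ROX1, the repressor of low-oxygen genes, rose by 1.30 ± 0.10.

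For ATP synthase 8 of 15 genes rose and 5 fell (median 0.32, or -0.10 on the scale of the hybridisation controls). The largest rises were not in the enzyme but in its regulators STF2 and STF1, at 2.02 ± 0.10 and 1.69, factors that stabilise the inhibited form. STF2 stood at 9.15, 9.38 and 9.38 against 11.50, 11.34 and 11.13. The catalytic subunit gene ATP2 rose by 0.84 and ATP20, needed for pairing of the enzyme, fell by 1.06 ± 0.09. The ADP and ATP carriers PET9 and AAC3 were at 0.53 and -0.95.

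Mitochondrial protein import fell as a group. Of 30 genes 27 fell and 2 rose (median -0.69). TIM12, a small Tim protein that guides carriers to the inner membrane, went from 9.40, 9.36 and 9.18 to 7.02, 7.11 and 7.00, and TIM9 of the same family fell by 1.73 ± 0.16. PAM18 of the import motor fell by 1.70 and TOM5 of the outer membrane channel by 1.58. The risers were SSC1, the mitochondrial Hsp70, at 0.19, not called without log phase replicate 1 or 2 (0.17 each), and MIA40, the oxidoreductase of the intermembrane space, at 0.20. The channel gene TOM40 was not called at -0.09.

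The machinery of transcription by RNA polymerases I and III fell. For polymerase I 7 of 7 own subunits fell (median -1.53, and -0.96 with the 3' minus 5' signal as a covariate), for polymerase III 10 of 10 (median -1.28) and of the subunits shared between polymerases 7 of 7 (median -1.49). RPB8, shared by all polymerases, went from 10.60, 10.56 and 10.57 to 8.52, 8.26 and 8.11. In each enzyme the largest subunit fell least, RPA190 by 0.61 ± 0.12 and RPO31 by 0.54 ± 0.08, against RPA12 and RPC11 at the other end, and neither large subunit was called with that covariate (-0.36 and -0.24). Of the 7 own subunits of RNA polymerase II, which makes messenger RNA, 5 fell and 1 rose (median -0.82). The riser was RPO21, its largest subunit, with 8.51, 8.40 and 8.48 against 9.27, 9.12 and 9.12, and RPB2, the second largest, was not called at -0.04.

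The factors that place polymerases I and III on their genes were mixed, with 9 of 17 lower and 3 higher (median -0.15). RRN3, which makes polymerase I competent to start, fell by 0.76, and RRN11 by 1.66. MAF1, the repressor of polymerase III, rose by 0.92 ± 0.10, from 7.31, 7.32 and 7.34 to 7.93, 8.41 and 8.39. All day 2 arrays were above the log phase arrays, with replicate 1 the lowest of them.

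Translation factors fell in initiation and not evenly in elongation. Of 24 initiation genes 22 fell and 1 rose (median -0.66, and -0.43 with the 3' minus 5' signal as a covariate). TIF11, which scans for the start codon, went from 10.87, 10.87 and 10.91 to 9.58, 9.63 and 9.08, and GCN3, of the exchange factor that recharges an initiation factor, fell by 0.98. PAB1, the poly(A)-binding protein, rose by 0.31. Of 11 elongation and termination genes 5 fell and 2 rose (median -0.04, and 0.02 under quantile normalization). TEF4 fell by 1.41, and HEF3, a second copy of elongation factor 3, rose from 6.50, 6.44 and 6.56 to 8.26, 8.09 and 8.26, while the main copy YEF3 was not called at 0.16. Of 20 cytosolic tRNA synthetases 18 fell and 1 rose (median -0.68), led by TYS1 and MES1 at -1.42 and -1.39. DPS1, for aspartate, rose by 0.23.

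**Figure D4:**
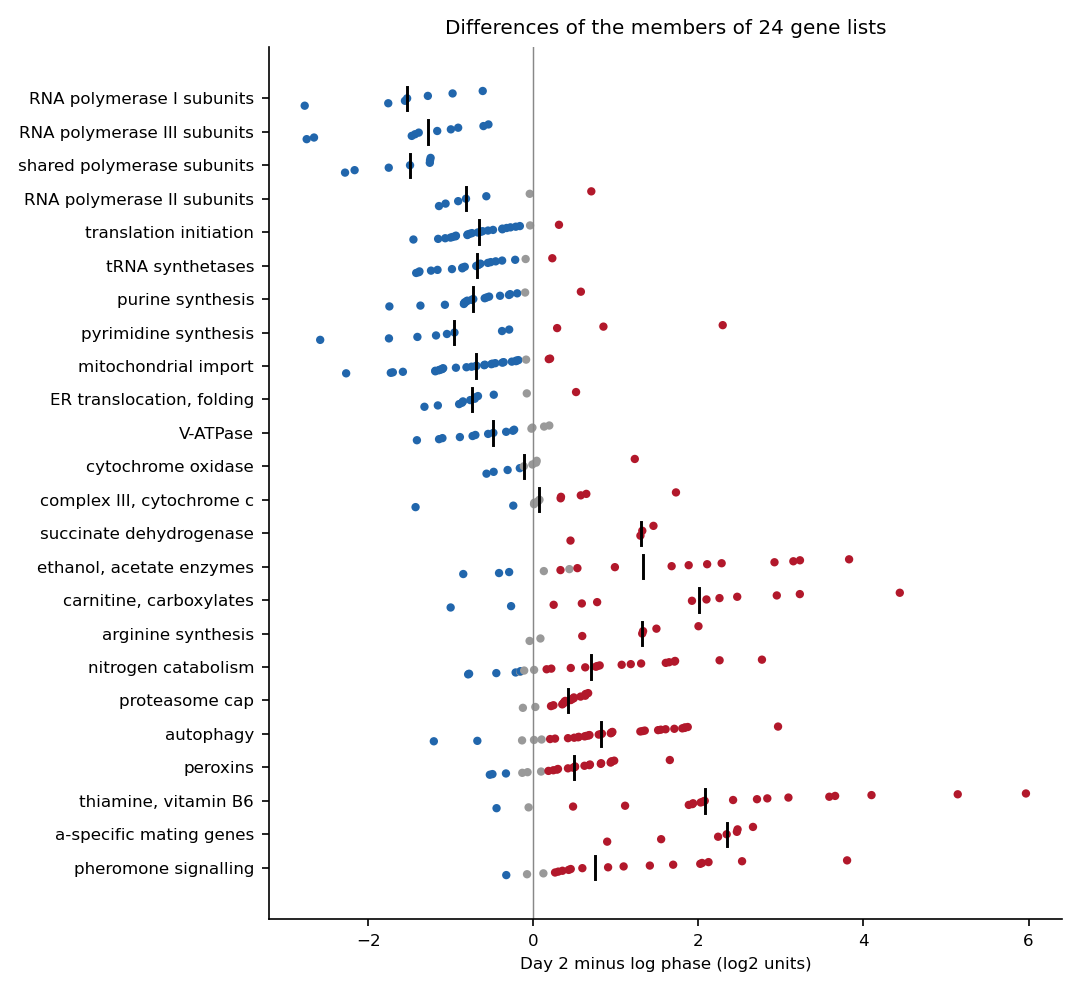
Differences between day 2 and log phase, in log2 units, of the measured members of 24 gene lists, each point a gene, coloured red where called higher, blue where called lower and grey where not called, with the list median as a black bar. The medians of the polymerase, nucleotide and import lists lie left of 0 and those of the carnitine, thiamine and mating lists right of it, with single members on the other side.

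Nucleotide synthesis genes mostly fell. Of 19 purine genes 17 fell and 1 rose (median -0.73). ADE4, the first step of the pathway, fell by 1.37 and IMD4, on the branch to GTP, by 1.74. The riser was ADE16 at 0.58, whose isoenzyme ADE17 fell by 0.40. Of 11 pyrimidine genes 8 fell and 3 rose (median -0.96, and -0.54 with the 3' minus 5' signal as a covariate). FUR1, which salvages uracil, went from 10.33, 10.48 and 10.34 to 7.86, 7.88 and 7.66. The orotate phosphoribosyltransferase URA5 went from 10.80, 10.82 and 10.75 to 9.70, 9.65 and 9.49, while its isoenzyme URA10 rose from 7.23, 7.40 and 7.23 to 9.34, 9.79 and 9.62. The CTP synthases URA7 and URA8 parted in the same way, at -1.75 ± 0.14 and 0.85. The third riser was URA2, the first step of the pathway, at 0.29 ± 0.10, with arrays that overlap (9.91, 9.80 and 10.26 against 10.25, 10.32 and 10.26) and no call without log phase replicate 1 or 2 (0.25 and 0.19) or day 2 replicate 2 (0.27).

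Of 10 deoxynucleotide genes 6 fell, beside 41.5% of all genes, and 2 rose (median -0.28, -0.55 with the 3' minus 5' covariate and -0.18 without day 2 replicate 1). DUT1, which removes dUTP, went from 10.37, 10.36 and 10.27 to 8.13, 8.36 and 8.20, and the dCMP deaminase DCD1 fell by 1.99 ± 0.07. The ribonucleotide reductase gene RNR1 fell by 0.50, RNR3 rose by 0.55, and RNR2 and RNR4 were not called. Polyamine synthesis fell in 4 of 6 genes with 1 higher (median -0.86): spermidine synthase SPE3 fell by 1.51 ± 0.06 and the ornithine decarboxylase SPE1 rose by 0.62. Spermine synthase SPE4 fell by 1.31 and SPE2 by 0.72, and the polyamine exporter TPO1 was not called at -0.15.

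Amino acid pathways went separate ways. Arginine synthesis had 5 of 7 genes higher and 0 lower (median 1.32, and 0.77 with the 3' minus 5' signal as a covariate). CPA1, of the carbamoyl phosphate synthase for arginine, stood at 8.36, 8.33 and 8.46 against 10.31, 10.25 and 10.59. ARG1, ARG3 and ARG4 rose by 1.49, 1.32 and 1.33. ARG2 and ARG8, of the acetyl cycle, were not called, while the remaining riser acts in that cycle too. In aromatic synthesis 11 of 13 genes fell and 1 rose (median -0.40), with ARO7 at -1.52. In histidine synthesis 4 of 7 fell and 1 rose, with HIS1, the first step, at -1.63 and HIS4 at 0.36.

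Lysine genes split into 3 higher and 4 lower of 8, with LYS1 at 1.28 and LYS9 at -0.91. Of 11 branched-chain genes 4 rose and 5 fell. In that pathway the isopropylmalate synthases parted: LEU9 went from 8.95, 8.69 and 9.08 to 7.12, 6.82 and 6.53 and LEU4 from 8.86, 8.76 and 8.93 to 9.73, 9.71 and 9.81. In serine and glycine synthesis 3 of 10 rose and 4 fell, and SER2 stood far from SER3 and SER1, at 0.48 and -0.32.

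The sulfur pathway was mixed, while both of its sulfate permeases rose. Of 23 genes of sulfur, methionine and threonine 9 rose and 7 fell (median 0.00, or -0.42 both on the scale of the hybridisation controls and given the covariate). With an array left out that median was 0.11 lacking log phase replicate 2, -0.12 lacking log phase replicate 3 and 0.22 lacking day 2 replicate 1. The sulfate permease SUL1 was below background in log phase and stood at 7.03, 8.19 and 8.62 on day 2, at least 4.26-fold higher, with day 2 replicate 1 well below the others. SUL2 rose by 1.35, MET10, of sulfite reductase, by 1.88 ± 0.16 and MET17, which joins sulfide to homoserine, by 1.30. The S-adenosylmethionine synthetases SAM1 and SAM2 were not called, at -0.10 ± 0.16 and 0.00 ± 0.17. Of the threonine branch HOM3 and THR1 fell by 0.90 and 0.89.

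Of 24 genes for uptake and breakdown of nitrogen compounds and for their control 16 rose and 5 fell (median 0.69). Proline oxidase PUT1 stood at 6.82, 6.78 and 6.81 in log phase and at 9.22, 9.41 and 10.10 on day 2, the general amino acid permease GAP1 at 6.12, 6.21 and 6.70 against 8.50, 8.66 and 8.65. The proline permease PUT4 rose by 1.71 and the high-affinity ammonium transporter MEP2 by 1.72, while the low-affinity MEP3 fell by 0.78. CAR1, which degrades arginine, fell by 0.79 in the same comparison in which arginine synthesis genes rose. At the branch to glutamate, GDH2, which releases ammonium from it, rose from 7.44, 7.56 and 7.86 to 10.21, 10.26 and 10.26. GDH3 rose by 1.25, GDH1 was not called at -0.02, and the transaminase AAT1 and asparagine synthetase ASN1 fell by 1.67 and 1.35.

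Of 16 amino acid permeases 9 rose and 6 fell (median 0.35, -0.07 on the scale of the hybridisation controls and 0.18 given the 3' minus 5' covariate). DIP5, for glutamate and aspartate, stood at 7.23, 7.39 and 7.56 against 8.63, 9.06 and 9.09, and AGP3 and AGP1 rose by 1.35 and 1.15. TAT1, for tyrosine and other large amino acids, fell by 1.09 ± 0.08, and MUP3, a low-affinity methionine permease, by 1.01.

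Lipid genes were divided by step. In fatty acid metabolism 6 of 11 genes rose and 4 fell (median 0.54). The acyl-CoA synthetase FAA1 stood at 9.05, 9.03 and 9.17 against 10.70, 10.50 and 10.55. The carboxylase ACC1, the synthase genes FAS1 and FAS2 and the desaturase OLE1 rose by 1.04, 0.54, 0.60 and 1.24. The elongases, of which ELO2 and ELO3 make the very long chains of sphingolipids, all fell: ELO2 by 1.71 ± 0.09, ELO3 by 1.34 and ELO1 by 0.62. ELO2 went from 9.78, 9.89 and 9.81 to 8.22, 8.21 and 7.91.

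Of 24 ergosterol genes 7 rose and 11 fell (median -0.14, and -0.29 with the 3' minus 5' covariate). ERG3, ERG25 and ERG9 rose by 0.84, 0.79 and 0.71 and ERG7 and ERG2 fell by 1.03 and 0.90. The HMG-CoA reductases HMG2 and HMG1 parted at 0.42 and -0.43. Of 11 phospholipid genes 9 rose and 1 fell (median 0.25, or -0.17 on the scale of the hybridisation controls), with INO1, which makes inositol, at 1.38 ± 0.10. In storage lipids the acyltransferase DGA1 rose by 1.17 and the sterol acyltransferases ARE2 and ARE1 were at 0.98 and -0.76.

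The early secretory pathway fell. Of 12 genes of translocation into and folding in the endoplasmic reticulum 10 fell and 1 rose (median -0.74), of 14 of oligosaccharide and mannose transfer 11 fell and 2 rose (median -0.56), and of 13 of COPII vesicles and p24 cargo receptors 10 fell and 1 rose (median -0.41). ERP2, a p24 protein, went from 9.71, 9.90 and 9.66 to 7.55, 7.76 and 7.66. ERO1, the oxidase of disulfide formation, fell by 1.32, while its partner PDI1 rose by 0.52, from 10.44, 10.40 and 10.42 to 10.94, 10.86 and 11.00. The channel gene SEC61 was not called at -0.08. The vacuolar proton pump had 11 of 15 genes lower and 0 higher (median -0.49), with VMA9 at -1.41 ± 0.08. The plasma membrane pumps PMA1 and PMA2 rose by 0.73 and 1.77.

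Cell wall genes moved in both directions. Of 19 wall enzymes 12 rose and 5 fell (median 0.59, and 0.31 with the 3' minus 5' covariate). GSC2, the glucan synthase subunit made under stress and in sporulation, stood at 8.87, 9.04 and 8.84 against 11.14, 11.13 and 11.19, while its counterpart in growing cells, FKS1, rose by 0.28 ± 0.08. NCA3 and UTH1, of the SUN family, rose by 2.10 and 1.77, and UTR2 and GAS3 fell by 3.05 and 0.82. Of 13 mannoproteins 7 rose and 3 fell (median 0.27, or -0.15 on the scale of the hybridisation controls): YGP1 rose by 3.40 ± 0.14 from 7.62, 7.76 and 7.85 to 10.81, 11.16 and 11.47, SPI1 by 2.60 and SED1 by 1.97, and CWP1 and TIR3 each fell by 1.03. Of the PIR proteins PIR3 stood at 6.32, 6.21 and 6.52 against 9.27, 9.40 and 9.64, HSP150 rose by 1.16, and PIR1 and CIS3 were not called. In the eisosome, a furrow of the plasma membrane, 6 of 7 genes rose and 1 fell (median 1.57). LSP1 rose by 2.52 ± 0.14 and SUR7, the founding member of the FMP45 family, fell by 0.39 ± 0.11.

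Cell cycle genes held 6 higher and 7 lower of 20 cyclins and G1 regulators (median -0.01). CLB6 went from 8.03, 8.06 and 8.13 to 6.48, 6.61 and 6.67, and CLB1 and CLB2 of mitosis fell by 0.90 and 0.68. CLN3, the G1 cyclin tied to nutrients, rose by 1.13 ± 0.10, from 8.08, 7.95 and 8.01 to 9.20, 9.16 and 9.07. The inhibitors WHI5 and FAR1 rose by 0.57 and 1.06, and CLN1 and CLN2 were not called. Of 9 histone genes 6 fell and 2 rose (median -0.36, -0.19 under quantile normalization and -0.54 with a gene's probe sets averaged): HTB2 fell by 1.46 ± 0.06, and HTA1 and the linker histone HHO1 rose by 0.34 and 0.47. Of 8 genes of daughter cell separation 5 fell and 1 rose (median -0.51), the riser being the chitinase CTS1 at 1.09 ± 0.30.

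Autophagy genes mostly rose. Of 34 autophagy genes 29 rose and 2 fell (median 0.82). ATG39, the receptor for autophagy of the nuclear envelope, stood at 6.03, 5.98 and 6.10 in log phase and at 8.85, 9.08 and 9.09 on day 2. ATG8, the protein joined to the membrane of the autophagosome, stood at 7.84, 7.88 and 7.79 against 9.45, 9.70 and 9.77. ATG34, ATG19 and ATG22 rose by 1.87, 1.84 and 1.83. ATG10, the enzyme that conjugates Atg12, went the other way, from 8.12, 8.15 and 7.93 to 6.86, 6.92 and 6.78, and ATG27 fell by 0.68.

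The proteasome moved by less. Of 18 genes of its regulatory cap 16 rose and 0 fell (median 0.42, or -0.00 on the scale of the hybridisation controls), and of 14 core genes 7 rose and 1 fell (median 0.19, -0.23 so centred and 0.03 with the 3' minus 5' covariate). Among all genes 39% rose and 41.5% fell. RPN7, RPN5 and RPT6 led at 0.66, 0.63 and 0.63. Their transcription factor gene RPN4 rose by 1.40 ± 0.10, and polyubiquitin UBI4 went from 8.86, 8.81 and 8.80 to 11.18, 11.04 and 11.08. UBC8, which marks gluconeogenic enzymes for decay, rose by 2.11.

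Of 24 peroxisome assembly genes 18 rose and 3 fell (median 0.49). PEX18, a co-receptor for import, stood at 5.98, 5.94 and 5.96 against 7.41, 7.60 and 7.83, and PEX14, PEX29, PEX10 and PEX3 rose by between 0.94 and 0.98. PEX31, PEX17 and PEX25 fell by 0.53, 0.50 and 0.33.

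Regulators of growth and quiescence rose for the most part. Of 13 genes of the Ras and PKA pathway 10 rose and 3 fell (median 0.80). The catalytic subunit genes TPK2 and TPK3 were at 1.95 ± 0.12 and -0.83, the inhibitory subunit BCY1 rose by 1.52 and the G protein gene GPA2 by 2.08. RAS1 went from 8.66, 8.66 and 8.71 to 7.23, 7.15 and 7.03 and RAS2 from 8.80, 8.92 and 8.88 to 9.35, 9.61 and 9.66. Of 10 TOR pathway genes 8 rose and 0 fell (median 0.39, or -0.03 on the scale of the hybridisation controls), with TOR1 and KOG1 not called. Of 11 regulators of quiescence and stress 10 rose and 0 fell (median 0.82). XBP1, a repressor made in quiescent cells, was below background in log phase and was at least 5.53-fold higher. YAK1 and GIS1 rose by 1.87 and 1.51, and the kinase RIM15, which the PKA and TOR pathways hold back, rose by 0.74 ± 0.05 with 6.79, 6.81 and 6.82 against 7.58, 7.53 and 7.54.

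Of 19 thiamine and vitamin B6 genes 17 rose and 1 fell (median 2.08). PET18, a gene of the thiamine regulon, stood at 7.11, 7.17 and 6.96 against 10.73, 10.79 and 10.69, and THI73, a putative carboxylate carrier controlled by thiamine, rose by 4.10 ± 0.10. SNZ1, which makes pyridoxal phosphate, rose by 3.59 ± 0.13. THI80, which makes the active cofactor from thiamine, fell by 0.45 and PDC2, a regulator of THI and PDC genes, was not called at -0.06.

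Of 9 copper genes 4 rose and 3 fell, beside 39% and 41.5% of all genes (median 0.16, -0.045 given the 3' minus 5' covariate and -0.26 centred on the hybridisation controls). The plasma membrane uptake genes CTR1 and CTR3 fell, CTR1 from 9.82 ± 0.19 to 7.97 ± 0.26 and CTR3 by 2.23 ± 0.17, from 9.22, 8.98 and 9.73 to 6.81, 7.25 and 7.18, and the reductase FRE7 fell by 0.97. The vacuolar copper transporter CTR2 rose by 0.35 ± 0.09, and the reductase FRE1 was not called at -0.11. The metallothioneins, which bind copper, rose: CRS5 went from 7.49, 7.44 and 7.59 to 10.33, 10.28 and 10.18 and CUP1-1, on a probe set shared with its identical copy, rose by 2.18 ± 0.06. The copper regulator genes MAC1 and CUP2 were at 0.53, called, and 0.16, not called. In the phosphate list 7 of 14 genes rose and 3 fell (median 0.20, -0.23 centred on the hybridisation controls, 0.03 with the 3' minus 5' covariate and 0.38 without dim genes). PHO84, the high-affinity phosphate transporter, stood at 6.20, 6.16 and 6.60 against 9.83, 10.11 and 10.09, while VTC4, of polyphosphate synthesis, was not called at 0.00. Of 6 zinc genes 3 rose and 0 fell (median 0.49, and -0.26 with the 3' minus 5' covariate), and leaving out single arrays gave 0.82 without day 2 replicate 1, 0.27 without day 2 replicate 3 and 0.29 without log phase replicate 3. The regulator ZAP1 and its target ZRT1 were not called, both at 0.03, nor was ADH4 at 0.44. The risers were the low-affinity transporter ZRT2 at 1.08 ± 0.21, the vacuolar transporter ZRT3 at 0.55 ± 0.17 and ZPS1 at 0.76 ± 0.24, and none of these was called with the 3' minus 5' covariate.

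Mating genes mostly rose. All 7 genes specific to a cells rose (median 2.34). The receptor for alpha-factor, STE2, stood at 9.75, 9.70 and 9.76 in log phase and at 11.22, 11.34 and 11.29 on day 2, and BAR1, the protease that destroys alpha-factor, at 8.02, 8.03 and 7.92 against 10.44, 10.43 and 10.53. The a-factor genes MFA1 and MFA2 rose by 2.47 ± 0.16 and 2.34 ± 0.19, and the agglutinin gene AGA2 by 2.66 ± 0.12. Of the 18 genes of pheromone signalling 15 rose and 1 fell (median 0.75), from AGA1, which anchors the agglutinin, at 3.80 ± 0.11 and the fusion gene FUS1 at 2.53 ± 0.10 to the phosphatase MSG5 at -0.33. AGA1 stood at 7.12, 7.12 and 7.25 against 11.22, 10.91 and 10.78.

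Of the 4 genes specific to alpha cells 3 rose. MF(ALPHA)1 was 22.2-fold higher, the alpha-agglutinin SAG1 rose by 1.50 ± 0.09 and the a-factor receptor STE3 by 0.75 ± 0.06, from 6.47, 6.55 and 6.39 to 7.24, 7.21 and 7.22. The second alpha-factor gene, MF(ALPHA)2, was not called, with 5.95, 5.88 and 5.80 against 5.76, 5.81 and 5.81. Its mean was close to the background of 5.84 in log phase and below that of 5.81 on day 2. Among 12 genes of meiosis and sporulation 6 rose and 4 fell (median 0.13, -0.30 on the scale of the hybridisation controls and -0.03 under quantile normalization). The master regulator IME1 was at 0.33 ± 0.08, with 6.49, 6.31 and 6.42 against 6.62, 6.66 and 6.94, and SPO11, which cuts DNA in meiosis, fell by 1.41 ± 0.08.

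Day 2 levels did not all persist. PDC5 was at 9.30 ± 0.04 on day 6 and 9.94 ± 0.40 on day 10, beside 12.99 ± 0.04 on day 2, with a difference between days 6 and 2 of -3.68 ± 0.14. MF(ALPHA)1 was at 5.92 ± 0.04 on day 6, AGA1 at 7.91 ± 0.15 and STE2 at 7.95 ± 0.04, the last below its log phase level of 9.74 ± 0.04. THI13 fell by 3.07 ± 0.07 from day 2 to day 6 and THI4 by 0.64 ± 0.08. Others went higher still: MLS1 reached 11.83 ± 0.09 on day 6, PIR3 11.16 ± 0.13 and ATG39 10.28 ± 0.06. CTR3, low on day 2 at 7.08 ± 0.24, was at 9.89 ± 0.22 on day 6. All these differences between days 6 and 2 passed the same threshold. RPA12 did not, with 6.85 ± 0.18 on day 2 and 7.11 ± 0.24 on day 6.

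**Figure D5:**
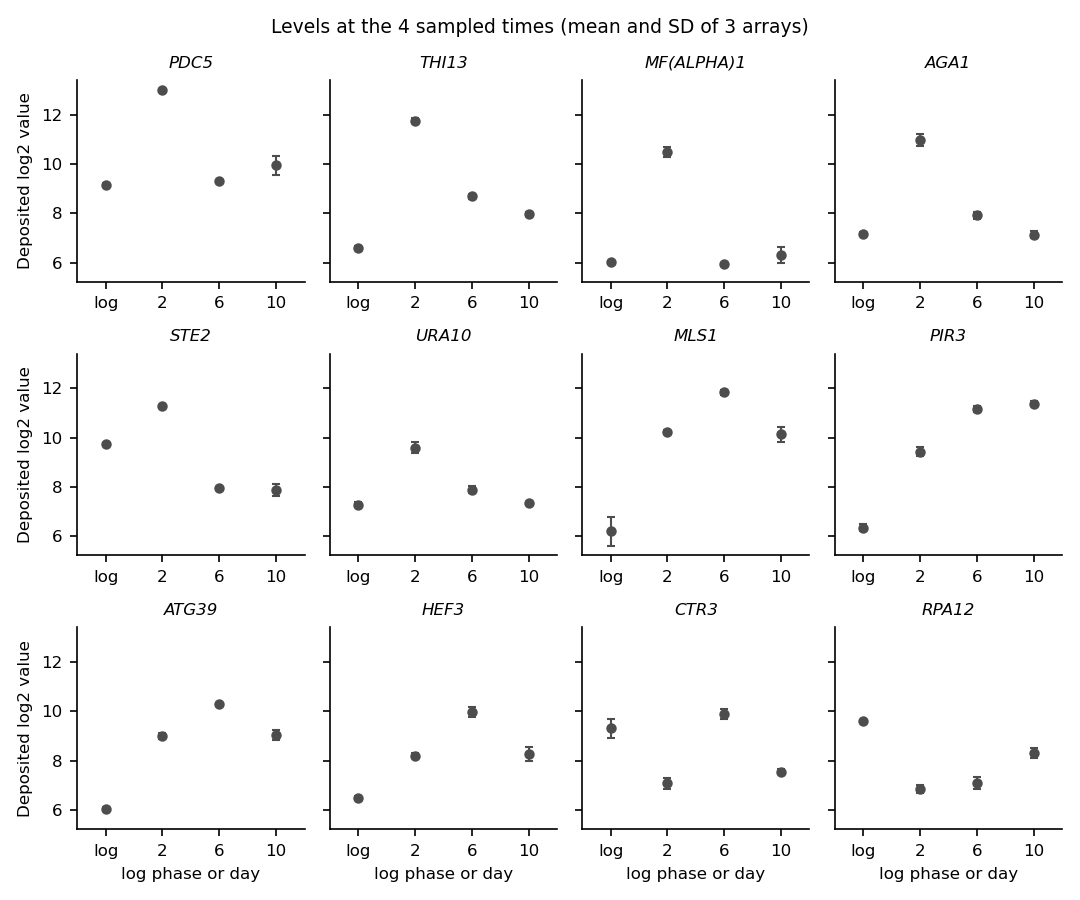
Mean and SD of the 3 arrays at each of the 4 sampled times for 12 genes, as deposited log2 values against log phase and days 2, 6 and 10. PDC5, THI13, MF(ALPHA)1, AGA1, STE2 and URA10 are highest on day 2, and MLS1, ATG39, HEF3 and PIR3 are higher on day 6 than on day 2.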

How the data were processed

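The values are the authors' deposited log2 probe set summaries of 12 Affymetrix arrays, computed by PLIER according to the submitters' processing notes. The log2 scale was read from the range of the values. The PLIER version, the background step and any normalization across arrays were not given in the sources used here. All 12 deposited columns were used, and 0 columns belonged to other samples. With 3 arrays a group, their number sets the limit of precision.

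Of 10928 probe sets 213 were controls, 7244 had 1 annotated gene, 1 had several and 3470 had none. Gene IDs were matched to a RefSeq table of strain S288C, which updated 12 symbols, and 5498 probe sets gave 5449 S. cerevisiae genes. For 47 genes with several probe sets the brightest on average was used. The 1746 probe sets of another yeast species set the background, the 95th percentile of their values. A gene whose group mean was below it has a fold given as a lower bound, the brighter group's mean against the higher of that background and the dim value.

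The log2 values were fitted with limma 3.58.1, run in R 4.3.3, with a coefficient per time over all 12 arrays, and day 2 was set against log phase with Benjamini-Hochberg adjustment over all genes. The fit was tested on simulated data. Every adjusted p is from limma. Replicate numbers were not taken as pairs.

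The comparison, the gene lists, the pairs and the tests were chosen with earlier results of these data known. Genes were eligible to be named by a rule, and those named were picked from these with their values known: the 15 highest and 15 lowest called genes with arrays that do not overlap; all members of lists of up to 12 measured genes; of longer lists the 5 called members with the largest difference, those called against the majority and the one with the smallest difference; and both members of 70 pairs. Alternatives were a linear offset of 16, quantile normalization, centring on array medians or on the hybridisation controls with or without bioB, a filter on dim genes, single or averaged probe sets, a trended robust prior, the 6 arrays alone, a replicate block, the 3' minus 5' covariate and each array left out.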

Additional observations from a re-analysis of the deposited data

Results flagged for a closer look

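Probe sets with no gene in the annotation entered no comparison above. Of the 3470 such probe sets 354 were called between day 2 and log phase (10.2%), and 55 of these differed by at least 2-fold, 41 higher and 14 lower on day 2. For comparison, 101 of the 1746 background probe sets, designed for another yeast species, were called (5.78%), and 0 differed by at least 2-fold. The highest of the unannotated probe sets was 1770587_at at 3.99 ± 0.07, followed by 1773061_s_at at 3.24 ± 0.14, and the lowest were 1774064_at at -2.16 ± 0.06 and 1772505_at at -2.07 ± 0.05. Their genes are not named here.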

How the results depend on the processing

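Of the 281 called genes named in the text 227 kept their direction and their call under every alternative. Centring on the hybridisation controls moved the direction of calls most: it called 903 genes higher and 3037 lower, 22.9% higher of those called against 48.5%, and at 2-fold 410 higher and 1269 lower. With bioB left out of it, fewer genes were called, 1481 higher and 1804 lower or 45.1% higher, and at 2-fold 616 and 653. With bioB kept in that centring, the rises that turned below 0 were SSC1 (-0.23), MIA40 (-0.22), SHM2 (-0.21), DPS1 (-0.19), FKS1 (-0.14), URA2 (-0.13), PAB1 (-0.11), PDC1 (-0.093), COR1 (-0.091), IME1 (-0.088), HTA1 (-0.081), CTR2 (-0.074), HIS4 (-0.060) and CDC19 (-0.012), none of them called under it. With the 3' minus 5' covariate ZRT3 turned to -0.16, not called. By construction this centring shifts all genes by one amount per array (a shift of -0.42, and of -0.048 without bioB), and which scale is right was not tested. Deviations of same-numbered arrays from their group means correlated at -0.03, 0.39 and 0.00, and 2 of the 6 arrays correlated best with their own number. The deviations within a group sum to 0, so these correlations cannot decide whether such arrays share more than a number. With that number as a block 4370 genes were called, and among named genes it added the call of RNR2 (0.24) and ended none. Leaving out an array gave 4214 to 4406 called genes, 2027 to 2193 higher and 2173 to 2237 lower, and at 2-fold 1166 to 1323, 625 to 693 higher and 541 to 630 lower. Differences of genes near background are compressed, so signal over background limits 188 dim genes most.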
